A study of Mus musculus with 6 samples.

Results

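Messenger RNA of 10 genes widely used as markers of tubular injury and repair was measured in whole mouse kidneys: Havcr1, Lcn2, Spp1, Clu, Vcam1, Icam1, Cd44, Sox9, Sox4 and Plin2. They were chosen by name, with earlier results of these data known, and all 10 were found among the 56923 gene identifiers counted and among the 18273 genes that had enough reads to be tested. The study deleted Pkd1, which encodes the membrane protein polycystin-1 and is the main disease gene of dominant polycystic kidney disease. The Pkd1 KO group was 3 kidneys from male mice of genotype Pkd1flox/flox.Pax8rtTA.Tet-O-Cre. In these mice a Pax8-driven activator switches on Cre in tubule cells when doxycycline is given. The control group was 3 kidneys from male mice of genotype Pkd1flox/flox.Tet-O-Cre, which carried the floxed alleles and the Cre transgene but no activator. Mice of both groups drank doxycycline (2 mg/ml in 5% sucrose) for 14 days, from postnatal day 28 to 42. Kidneys were taken at 10 weeks of age.

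A tubule cell that is injured but survives sheds or secretes proteins that serve as urinary markers, among them kidney injury molecule 1 (Havcr1) and neutrophil gelatinase-associated lipocalin (Lcn2). It also puts adhesion receptors on its surface, restarts developmental transcription factors of the Sox family and may store lipid. Where repair is incomplete, mouse tubule cells are known to keep Vcam1 and other such genes on. None of these genes belongs to tubule cells alone: macrophages express Spp1 and Cd44, neutrophils carry the Lcn2 product, and endothelium carries Vcam1 and Icam1.

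RNA sequencing counted 51966474 to 62983791 reads in genes per Pkd1 KO library and 45020173 to 55548316 per control library. A project-like code in the deposited run names differed between the groups (0 of 2 codes covered both). It was read here as a sequencing project, which the sample labels do not name. Genotype and that code cannot be told apart. Pkd1 KO and control libraries lay apart on the first principal component, 70.4% of the variance. Pkd1 (ENSMUSG00000032855) had 8.77, 9.003 and 10.0 CPM (counts relative to library size) in Pkd1 KO kidneys, against 30.0, 46.4 and 23.6 CPM in control kidneys, a log2 fold change of −1.85 ± 0.24 (SE; adjusted p = 0.00234 in edgeR's quasi-likelihood test). A second edgeR fit carried offsets that remove each library's trend with GC content and exon length, and there Pkd1 stood at −0.34 (adjusted p = 0.0643; −0.53 and 0.0112 with a quadratic form of the offsets added after the data were seen). Genes of the differentiated proximal tubule summed to 64171 to 73243 CPM in Pkd1 KO kidneys and 46294 to 58184 CPM in control kidneys, so defining kidney genes were abundant in both groups. Kap alone made up 39679 to 47517 CPM of that sum in Pkd1 KO and 13977 to 26581 CPM in control kidneys, and 13 of the 25 genes were lower. Macrophage markers summed to 225, 366 and 322 CPM in Pkd1 KO kidneys 1, 2 and 3 and to 123 to 162 CPM in control kidneys. Of the 11 markers 8 were called higher and 1, Csf1r, lower. Lyz2 alone made up 97.5, 189 and 165 CPM of the Pkd1 KO sums and 12.7 to 30.2 CPM of the control sums. Endothelial markers summed to 458 to 475 CPM in Pkd1 KO kidneys, against 655 to 726 CPM in control kidneys, with 2 of 9 called higher and 7 lower (median log2 fold change −0.90), and 1 higher and 3 lower with the offsets (median −0.18).

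Of the 10 injury and repair genes, 5 rose in Pkd1 KO kidneys (Havcr1, Lcn2, Cd44, Spp1 and Vcam1), 2 fell (Clu and Plin2) and 3 did not pass the test (Icam1, Sox9 and Sox4). A gene was called at an adjusted p below 0.05 in edgeR's test, and by that rule 46.9% of all genes tested were called, 22.7% higher and 24.2% lower. The 5 higher and 2 lower genes of 10 therefore stand beside a tissue in which nearly as many genes moved as did not. At least 2-fold increases were found for 3 of the 10 (Havcr1, Lcn2 and Cd44), beside 11.6% of all genes. The 3 values of each group did not overlap for 7 of the 10, beside 61.2% of all genes. All Pkd1 KO values lay above all control values for 5 of the 10 (Havcr1, Lcn2, Spp1, Cd44 and Sox9), beside 31.2%. These are not the 5 called higher: Vcam1 was called but overlapped, and Sox9 did not overlap but was not called. The median log2 fold change of the 10 was 0.63, beside 0.03 for all genes tested.

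**Figure D1:**
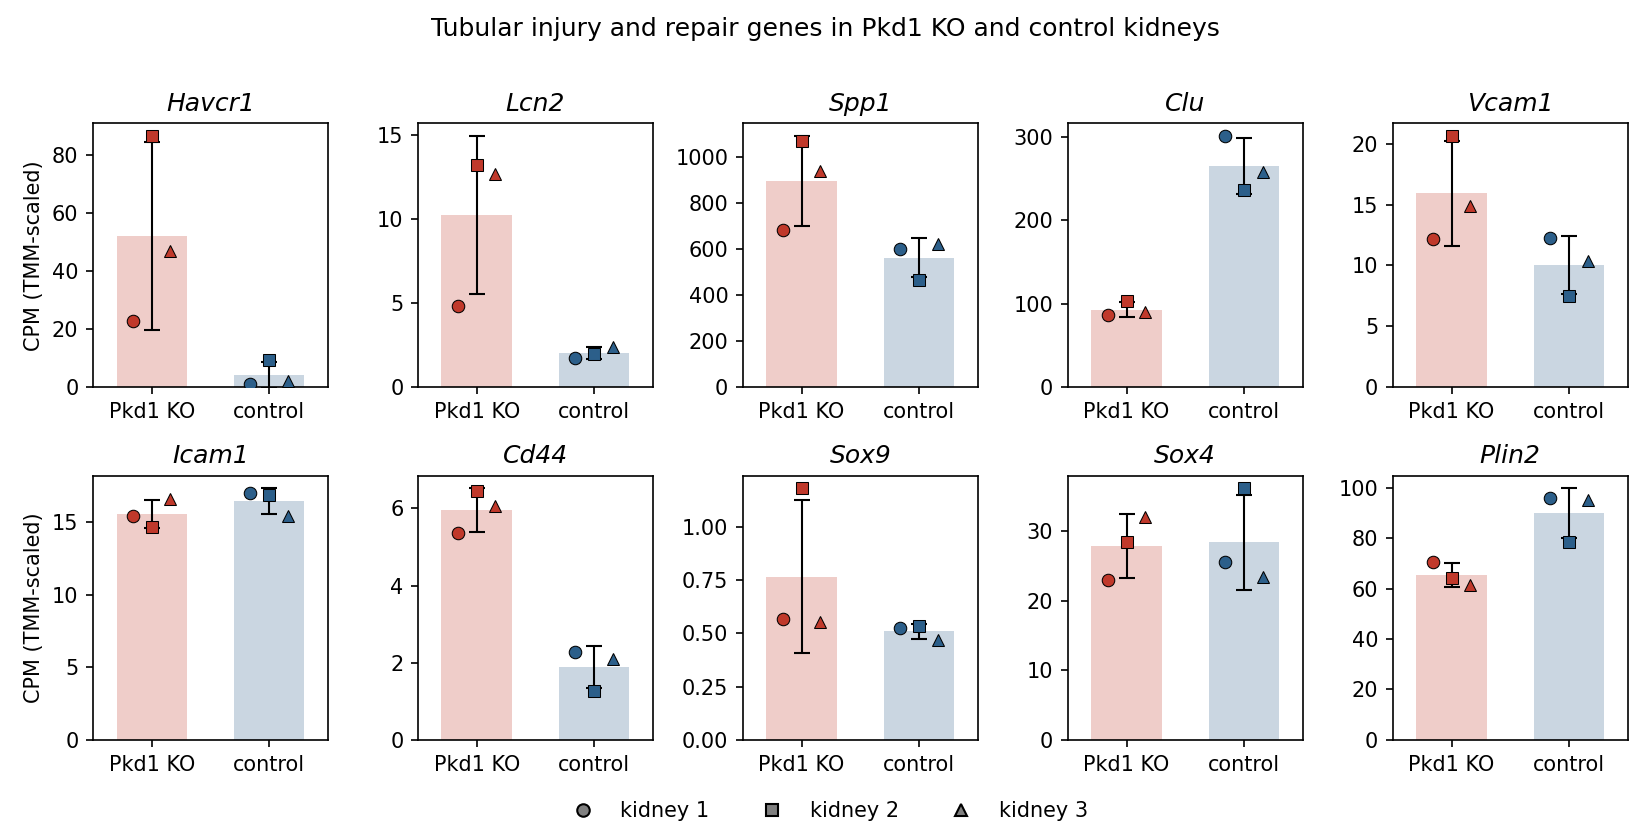
Levels of the 10 genes in each kidney, in TMM-scaled CPM (linear axes from 0), Pkd1 KO left and control right. Bars are means of 3 kidneys, error bars are SD, and the marker shape gives the kidney number within its group. The lower error bar of Havcr1 in controls (4.23 ± 4.496 CPM) is cut at 0. Havcr1, Lcn2 and Cd44 lie apart and above in Pkd1 KO, and so, narrowly, do Spp1 and Sox9. Clu and Plin2 lie apart and below, and Vcam1, Icam1 and Sox4 overlap.

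The promoters of the 3 members with the largest increases and of Icam1, which was not called, are shown here as examples. They were picked with the motif matches known, so the share of matches among these 4 is not a result. The RefSeq table of mouse build GRCm38.p6 had entries for 7 of the 10 genes. Each sequence is the 250 bases before the annotated start, 5′ to 3′ on the strand of the gene, and capitals mark matches to the motifs searched on both strands. Havcr1 is shown at the most upstream of its 3 annotated starts (chr11:46739973-46740222, plus strand), Lcn2 at chr2:32387740-32387989 (minus strand), Cd44 at chr2:102901666-102901915 (minus strand) and Icam1 at chr9:21015690-21015939 (plus strand).
Havcr1: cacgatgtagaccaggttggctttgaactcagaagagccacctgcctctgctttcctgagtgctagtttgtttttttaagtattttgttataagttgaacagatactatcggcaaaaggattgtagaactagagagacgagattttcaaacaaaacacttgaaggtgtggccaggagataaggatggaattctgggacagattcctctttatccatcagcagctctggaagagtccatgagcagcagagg
Lcn2: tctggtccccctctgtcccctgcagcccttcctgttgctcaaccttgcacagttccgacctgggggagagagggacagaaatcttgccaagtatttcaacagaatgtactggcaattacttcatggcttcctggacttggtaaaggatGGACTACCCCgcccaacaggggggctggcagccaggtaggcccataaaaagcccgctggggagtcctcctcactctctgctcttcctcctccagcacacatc
Cd44: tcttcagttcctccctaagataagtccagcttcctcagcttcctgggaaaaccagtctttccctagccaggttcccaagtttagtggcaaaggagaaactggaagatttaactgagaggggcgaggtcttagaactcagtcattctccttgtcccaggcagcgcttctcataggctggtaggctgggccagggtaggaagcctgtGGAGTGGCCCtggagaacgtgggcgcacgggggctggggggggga
Icam1: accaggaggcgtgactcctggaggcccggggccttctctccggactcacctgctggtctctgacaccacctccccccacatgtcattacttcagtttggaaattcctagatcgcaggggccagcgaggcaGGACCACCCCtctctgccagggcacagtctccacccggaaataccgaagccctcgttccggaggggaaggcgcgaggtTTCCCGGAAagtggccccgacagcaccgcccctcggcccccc
The NF-kB pattern (GGG, any 5 bases, CC, here always as its reverse complement) began at position −102 in Lcn2, −45 in Cd44 and −120 in Icam1, counted from the start, and at none in Havcr1. It is a loose pattern: it occurred in 4 of the 7 members' promoters (Plin2 is the other one) and in 45.8% of all 32851 promoters of the same length. The STAT pattern TTCNNNGAA occurred at −42 in Icam1, in 1 of 7 members and in 7.02% of all promoters. The AP-1 pattern TGANTCA occurred in 0 of 7 members and 6.75% of all promoters, and TATAAA in 1 of 7 (Spp1) and 12.4% of all. These matches describe letters in a window and say nothing of binding in these kidneys.

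Havcr1 (ENSMUSG00000040405), the phosphatidylserine receptor that lets injured proximal tubule cells engulf dead neighbours, had the widest difference of the 10. It stood at 22.7, 86.5 and 47.0 CPM in Pkd1 KO kidneys, against 1.05, 9.37 and 2.27 CPM in control kidneys. Each Pkd1 KO kidney lay above each control, but the values spread widely within both groups: the coefficient of variation was 61.9% in Pkd1 KO and 106% in control kidneys. In reads this was 1121, 5277 and 2977 against 54, 542 and 101, so the control kidneys with the least were still counted. Its log2 fold change of 3.61 ± 0.77 (SE, adjusted p = 0.00634 in edgeR's test), 12.2-fold, ranked 29 of 18273 genes from the highest. Control 2 weighed most on the size: without it the log2 fold change was 4.96, and without Pkd1 KO 2 it was 3.04. With the offsets it was 2.85 ± 0.75 (adjusted p = 0.0175). The strand columns added gave 0.7% to 1.2% more reads in Pkd1 KO kidneys and 0.9% to 27.7% more in control kidneys, and a log2 fold change of 3.54.

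Lcn2 (ENSMUSG00000026822), a secreted lipocalin that binds iron-carrying siderophores and is made by stressed distal tubule and collecting duct cells, also rose. Its values were 4.81, 13.2 and 12.7 CPM in Pkd1 KO kidneys and 1.73, 1.95 and 2.42 CPM in control kidneys. Pkd1 KO 1 was the lowest of its group and still above the highest control. This was a log2 fold change of 2.34 ± 0.37 (adjusted p = 0.0028 in edgeR's test), 5.05-fold, and 2.44 with the offsets (adjusted p = 0.0025). Neutrophils also store this protein. The 10 neutrophil markers summed to 1.42 to 2.79 CPM in Pkd1 KO and 1.20 to 1.503 CPM in control kidneys, and Ly6g and Mpo had 0 reads in every library. Of the 3 neutrophil markers with enough reads to test, 2 were called higher at low levels. S100a8 averaged 0.696 ± 0.234 CPM in Pkd1 KO and 0.256 ± 0.206 CPM in control kidneys (1.48, adjusted p = 0.04999 in edgeR's test), and S100a9 0.682 ± 0.376 and 0.207 ± 0.0736 CPM (1.74, adjusted p = 0.0197). With the offsets neither was called, and the part of neutrophils in the Lcn2 value was not tested.

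Spp1 (ENSMUSG00000029304) encodes osteopontin, a phosphoprotein that tubules secrete and that binds integrins and CD44. It was by far the most abundant of the 10 per length of transcript, at 545 ± 119 CPM per kb of exon in Pkd1 KO kidneys and 342 ± 50.9 in control kidneys (SD, n = 3 each). In CPM the kidneys read 684, 1069 and 939.9 in Pkd1 KO and 602, 468 and 622 in control. The groups did not overlap, but Pkd1 KO 1 lay only just above control 3. The log2 fold change was 0.67 ± 0.21 (adjusted p = 0.0258 in edgeR's test), and it did not hold with the offsets, where it was −0.11 ± 0.17 (adjusted p = 0.637). Spp1 is short and AT-rich (1648 exonic bases, 43.3% GC). The call was also lost without Pkd1 KO 2 (adjusted p = 0.117), Pkd1 KO 3 (0.0803) or control 1 (0.0711). In the annotation used here for gene structure (GENCODE M21), a predicted gene, Gm42793, overlaps 18.8% of the exonic bases of Spp1 on the same strand. Whether the counts left out reads there is not known, since the annotation behind them was not given.

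Clu (ENSMUSG00000022037) went the other way. It encodes clusterin, a secreted chaperone that is usually listed among the genes induced in damaged tubules. It had 86.9, 103 and 89.6 CPM in Pkd1 KO kidneys, against 301, 237 and 257 CPM in control kidneys. The highest Pkd1 KO kidney was far below the lowest control, and the kidneys of each group lay close together. Clu thus stood at a log2 fold change of −1.51 ± 0.15 (adjusted p = 0.00178 in edgeR's test), to 0.351 of the control level, and −1.12 with the offsets (adjusted p = 0.00192). In bulk tissue, fewer cells of a type and less RNA per cell cannot be told apart, for this gene as for the others. Of the 4 markers of the distal convoluted tubule 3 were lower, and they summed to 415 to 504 CPM in Pkd1 KO and 1078 to 1352 CPM in control kidneys. The 5 markers of the thick ascending limb were mixed. Their sum was 2031 to 2549 CPM in Pkd1 KO and 3761 to 4655 CPM in control kidneys, with Umod (−1.23) and Slc12a1 (−1.19) lower, Cldn10 higher (0.74, adjusted p = 0.0262 in edgeR's test) and Cldn16 and Kcnj1 not called. Lower calls were not limited to these 2 segments, and 24.2% of all genes tested were lower. Of 6 tested principal cell markers 5 were lower and 0 higher, and of 5 podocyte markers 4 and 0. Of 5 intercalated cell markers 2 were lower and 1 higher. With the offsets 3, 1 and 3 of these markers were lower and 0 higher. The part of any of these cells in the fall of Clu was not tested.

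Among the adhesion receptors, Cd44 showed the clear difference. Cd44 (ENSMUSG00000005087) encodes the receptor for hyaluronan, and osteopontin is another of its ligands. Its values were 5.36, 6.46 and 6.06 CPM in Pkd1 KO kidneys, against 2.27, 1.26 and 2.11 CPM in control kidneys. The Pkd1 KO kidneys lay close together and all above the controls. That gave a log2 fold change of 1.67 ± 0.25 (adjusted p = 0.00262 in edgeR's test), 3.18-fold, and 1.64 with the offsets (adjusted p = 0.0025). Leukocytes carry Cd44 too, and 8 of the 11 macrophage markers (above) and 4 of 8 T and NK cell markers were called higher. The 8 T and NK cell markers summed to only 7.64 to 12.1 CPM in Pkd1 KO and 4.496 to 5.57 CPM in control kidneys. The 4 called higher stand beside 22.7% of all genes, and 4 were not called. With the offsets 3 were called higher, beside 17.1% of all genes. Their part in the Cd44 value was not tested.

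Vcam1 (ENSMUSG00000027962), the ligand of integrin α4β1 and a marker of proximal tubule cells that fail to repair in mice, differed at the edge of the test. It read 12.2, 20.6 and 14.9 CPM in Pkd1 KO kidneys and 12.3, 7.51 and 10.4 CPM in control kidneys. Pkd1 KO 1 and control 1 were level, so the groups overlapped. The log2 fold change was 0.66 ± 0.24 (adjusted p = 0.0494 in edgeR's test) and 0.44 with the offsets (adjusted p = 0.15). Leaving out any of 5 kidneys ended the call, with adjusted p from 0.0551 (without control 1) to 0.207 (without Pkd1 KO 2), and so did size factors by edgeR's RLE method (0.0559). Endothelium also carries Vcam1, and the part of the endothelial values above in this result was not tested.

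Icam1 (ENSMUSG00000037405), the ligand of leukocyte β2 integrins, was nearly level. It had 15.4, 14.7 and 16.6 CPM in Pkd1 KO kidneys and 17.03, 16.9 and 15.4 CPM in control kidneys, which overlapped. Between groups the log2 fold change was −0.08 ± 0.14 (adjusted p = 0.651 in edgeR's test). With the offsets it was called higher, at 0.46 ± 0.12 (adjusted p = 0.0159). Icam1 has 4360 exonic bases and 55.4% GC, and the cause of this difference between fits was not tested. Its count in the column used was lower than the strand columns gave. In GENCODE M21 a predicted gene on the other strand, Gm47079, overlaps 11.7% of the exonic bases of Icam1. Whether that overlap made the difference was not tested, since the annotation behind the counts was not given. The 2 strand columns added gave 37% to 60% more reads than the column used in Pkd1 KO kidneys and 23.8% to 28% more in control kidneys. On that sum, a setting added after the data were seen, the log2 fold change was 0.16 (adjusted p = 0.343). The direction of Icam1 was thus not settled by these counts.

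Neither transcription factor passed the test. Sox9 (ENSMUSG00000000567), which proximal tubule cells switch on as they regenerate, was the least abundant of the 10 per length. Its CPM values were 0.566, 1.18 and 0.552 in Pkd1 KO kidneys and 0.524, 0.536 and 0.471 in control kidneys, from 28, 72 and 35 reads against 27, 31 and 21. Pkd1 KO 2 alone stood apart, and the other Pkd1 KO kidneys exceeded the controls narrowly. The log2 fold change was 0.59 ± 0.38 (adjusted p = 0.229 in edgeR's test) and 0.13 without Pkd1 KO 2. Sox4 (ENSMUSG00000076431), another factor of kidney development and epithelial plasticity, read 23.0, 28.5 and 32.1 CPM in Pkd1 KO and 25.6, 36.2 and 23.5 CPM in control kidneys. The groups overlapped, with a log2 fold change of −0.03 ± 0.20 (adjusted p = 0.92) and 0.24 with the offsets (adjusted p = 0.295). In GENCODE M21 a predicted gene on the other strand, Gm26735, overlaps 54.6% of the exonic bases of Sox4, but adding the strand columns gained at most 0.2% of reads.

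Plin2 (ENSMUSG00000028494), the coat protein of lipid droplets whose level follows stored lipid, was modestly lower. It had 70.7, 64.3 and 61.4 CPM in Pkd1 KO kidneys, against 96.1, 78.5 and 95.1 CPM in control kidneys. The groups did not overlap. The log2 fold change was −0.46 ± 0.14 (adjusted p = 0.0261 in edgeR's test), to 0.729 of the control level, and −0.34 with the offsets (adjusted p = 0.0568). The call ended without any of 4 kidneys, at adjusted p from 0.0541 (without Pkd1 KO 1) to 0.121 (without Pkd1 KO 3), and with upper-quartile scaling (0.124).

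**Figure D2:**
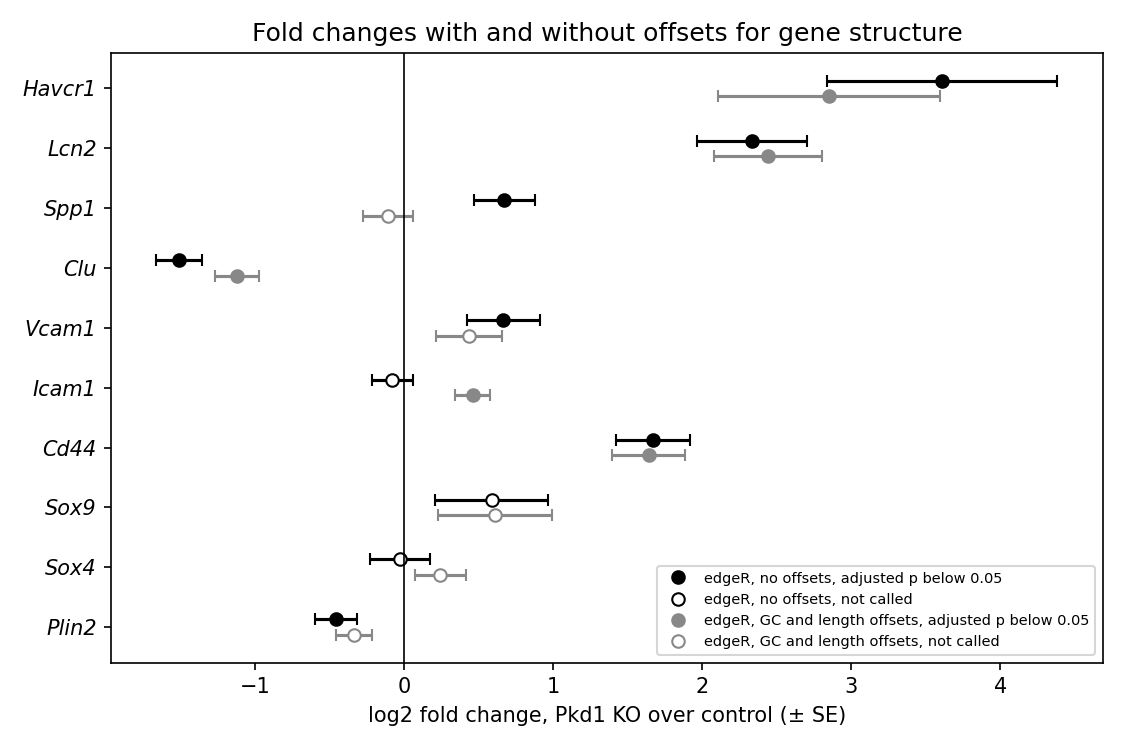
Log2 fold changes of the 10 genes (Pkd1 KO over control, x axis) with standard errors, from edgeR's test without offsets (black) and with offsets for GC content and exon length (grey). Filled circles have an adjusted p below 0.05. Havcr1, Lcn2, Cd44 and Clu keep their calls, Spp1, Vcam1 and Plin2 lose theirs, and Icam1 gains one with the offsets (0.46).

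With the offsets, 4 of the 10 were called higher (Havcr1, Lcn2, Cd44 and Icam1) and 1 lower (Clu), beside 17.1% higher and 17.4% lower of the 17785 genes in that fit. Over 16 other settings, Havcr1, Lcn2, Clu and Cd44 were called each time and in the same direction. Their log2 fold changes ran from 2.79 to 4.96 for Havcr1, 2.11 to 2.67 for Lcn2, −1.62 to −1.12 for Clu and 1.41 to 1.83 for Cd44. Spp1 was called in 9 of the 16, Plin2 in 8, Vcam1 in 5, Icam1 in 3, and Sox9 and Sox4 in 0.

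**Figure D3:**
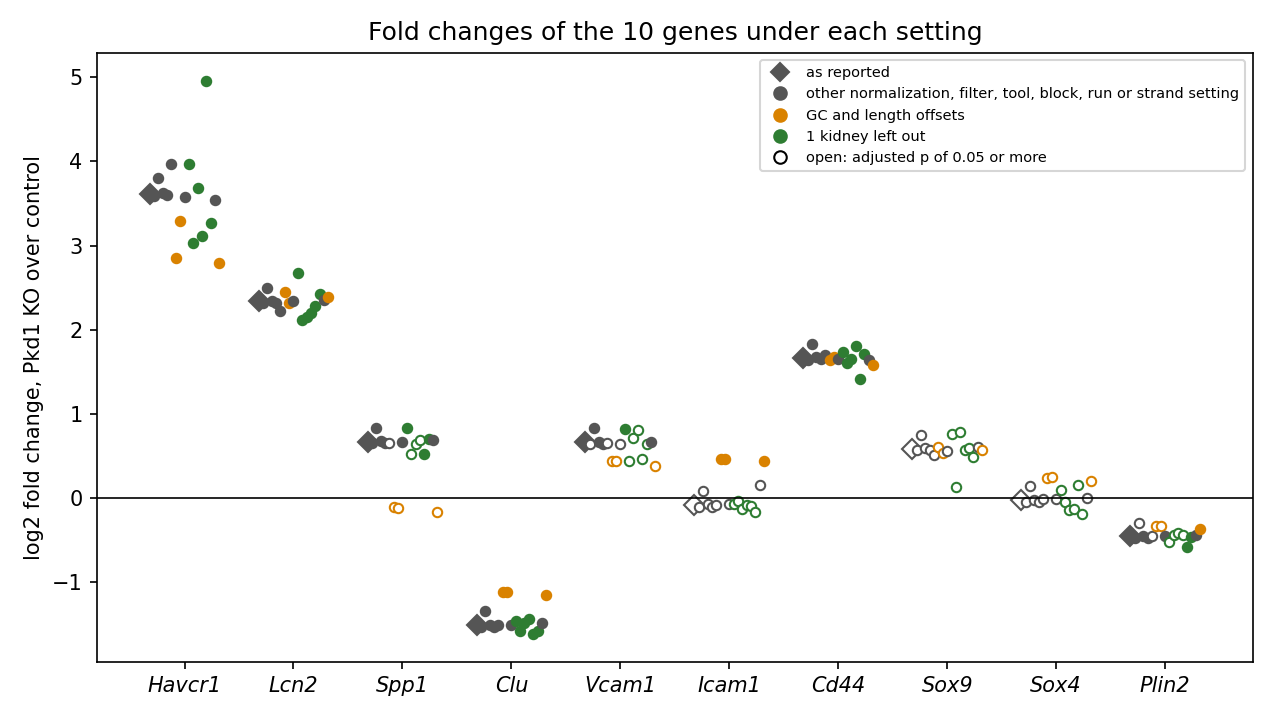
Log2 fold changes of the 10 genes (Pkd1 KO over control, y axis) in the reported fit (diamonds) and 16 other settings (circles, coloured by kind). Open symbols have an adjusted p of 0.05 or more. The symbols of Havcr1, Lcn2, Clu and Cd44 are all filled, and those of Spp1, Icam1 and Sox4 fall on both sides of 0.

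Per kb of exon, which allows levels of different genes to be set side by side, the order in Pkd1 KO kidneys was Spp1, then Clu at 27.1 ± 2.46, Havcr1 at 22.5 ± 14.0 and Plin2 at 18.6 ± 1.36 CPM per kb (SD, n = 3). Havcr1 did not differ from Clu or Plin2 beyond its own spread, while the Clu values all lay above the Plin2 values. In control kidneys Clu (77.1 ± 9.60 CPM per kb) and Plin2 (25.6 ± 2.81) were next after Spp1, and Havcr1 was at 1.83 ± 1.95. Sox4 followed in Pkd1 KO at 5.81 CPM per kb, against 5.92 in control kidneys, then Lcn2 (3.91 against 0.776), Icam1 (3.57 against 3.78) and Vcam1 (1.79 against 1.13). In Pkd1 KO kidneys the values of Lcn2 overlapped those of both Sox4 and Icam1. Cd44 (0.880 against 0.278) and Sox9 (0.185 against 0.123) were lowest, so Cd44 changed 3.18-fold at a low level.

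The genes did not move by an equal factor in each Pkd1 KO kidney. Pkd1 KO 2 was the highest of its group for 7 of the 10 genes and Pkd1 KO 1 the lowest for 7 of the 10. Relative to the control mean, Havcr1 lay 5.36 to 20.5 times higher, Lcn2 2.36 to 6.50 times and Cd44 2.85 to 3.43 times. Clu lay at 0.328 to 0.388 of the control mean in the 3 kidneys. The macrophage marker sum had the same lowest (225 CPM, Pkd1 KO 1) and highest kidney (366 CPM, Pkd1 KO 2). Lyz2 was the largest single part of both sums (97.5 and 189 CPM). With 3 kidneys no correlation can be tested, and the part of macrophages in these values was not tested.

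**Figure D4:**
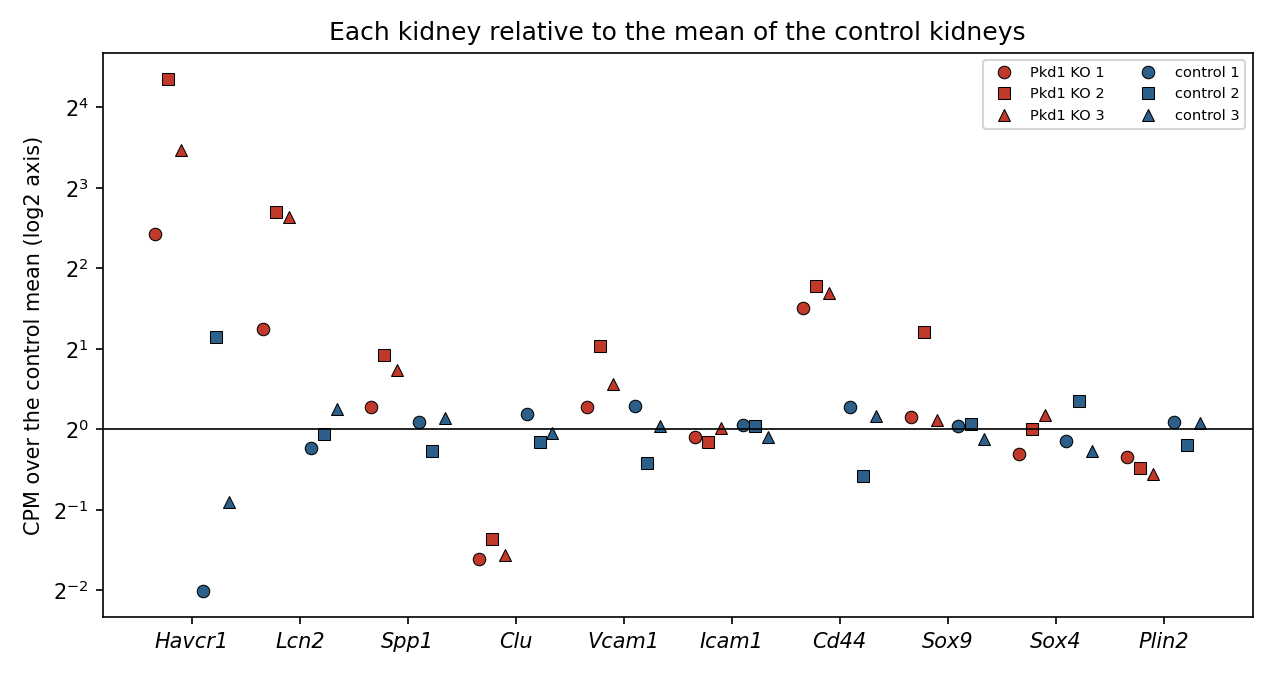
Each kidney's CPM divided by the mean of the control kidneys (log2 y axis), by gene. Red symbols are Pkd1 KO kidneys, blue symbols control kidneys, and shape gives the kidney number. Havcr1 spreads from 5.36 to 20.5 in Pkd1 KO kidneys, Cd44 from 2.85 to 3.43, and Clu lies between 0.328 and 0.388.

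Other genes linked to tubular injury and failed repair were read from a list of 34, all tested: 14 rose, 5 fell and 15 were not called. That was 55.9% called, beside 46.9% of all genes tested (22.7% higher and 24.2% lower). The lists that follow had 21.7% (binding partners), 33.3% (hyaluronan), 20% (adhesion receptors), 44.4% (other Sox), 42.1% (lipid droplet) and 64% (proximal tubule) called. With the offsets, 17.1% of all genes were higher and 17.4% lower. The median log2 fold change of the list of 34 was 0.20. The largest increases among its better expressed genes were in Cxcl1 and Ccl2, chemokines that attract neutrophils and monocytes, and Timp1, an inhibitor of matrix metalloproteinases. Cxcl1 averaged 6.44 ± 3.03 CPM in Pkd1 KO and 0.755 ± 0.446 CPM in control kidneys (SD, n = 3 each), with a log2 fold change of 3.10 (adjusted p = 0.0028 in edgeR's test). Timp1 stood at 2.64 ± 1.17 and 0.321 ± 0.238 CPM (3.05, adjusted p = 0.00389), and Ccl2 at 3.71 ± 1.05 and 0.538 ± 0.316 CPM (2.81, adjusted p = 0.00308). The largest decreases were in the guidance factor gene Sema5a (22.7 ± 3.01 CPM in Pkd1 KO and 49.6 ± 18.4 in control kidneys; −1.13, adjusted p = 0.00724; −0.40 with the offsets) and Hmox1, heme oxygenase 1 (21.8 ± 3.18 and 37.1 ± 11.1 CPM; −0.77, adjusted p = 0.021; −0.995 with the offsets). With the offsets again 14 were higher and 5 lower. Without Pkd1 KO 2 only 9 were called higher, and the lower calls numbered 2 or 3 without control 1 or any single Pkd1 KO kidney, where Hmox1 was lost without Pkd1 KO 2, Pkd1 KO 3 or control 1 (adjusted p from 0.0694 to 0.0864).

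Of 24 receptors, integrins and other binding partners of the member proteins, 23 were tested, and 2 were higher and 3 lower, with a median of −0.29. With the offsets 1 was higher and 1 lower, with a median of 0.10. Itgb5, whose αvβ5 integrin binds osteopontin, fell to 47.9 ± 5.00 CPM in Pkd1 KO kidneys, against 125 ± 27.5 CPM in controls (−1.38, adjusted p = 0.00234 in edgeR's test; −0.85 with the offsets). Slc22a17, a receptor for the Lcn2 protein, had 19.3 ± 2.22 CPM in Pkd1 KO and 33.3 ± 6.73 CPM in control kidneys (−0.79, adjusted p = 0.00862), but −0.01 with the offsets. Timd2, a close relative of Havcr1 in the mouse, was higher at 86.8 ± 6.20 against 52.7 ± 18.2 CPM (0.72, adjusted p = 0.0354), and 0.18 with the offsets. Its call ended without control 1 or any single Pkd1 KO kidney, and without control 2 its value was 0.45. The other gene called higher, Trem2, a lipid receptor of macrophages, was under the level set for naming and is given after its values were seen: it averaged 1.07 ± 0.304 CPM in Pkd1 KO and 0.118 ± 0.0659 CPM in control kidneys (3.12, adjusted p = 0.00266). Lower calls numbered 9 without control 3, and higher calls 1 without Pkd1 KO 1 or Pkd1 KO 2.

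Hyaluronan is the ligand of CD44, and of 9 tested genes of 12 for its synthesis, breakdown and binding 1 was higher and 2 lower (median −0.11). Hmmr, a hyaluronan-binding protein that also works at the mitotic spindle, rose to 8.23 ± 2.06 CPM in Pkd1 KO kidneys, against 0.992 ± 0.291 CPM in controls (3.06, adjusted p = 0.00177 in edgeR's test). The hyaluronidases Cemip2 (12.7 ± 1.74 and 30.7 ± 9.14 CPM; −1.28, adjusted p = 0.00333) and Hyal1 (1.97 ± 0.28 and 3.91 ± 0.145 CPM; −0.99, adjusted p = 0.00515) fell. All 3 kept their calls and directions with the offsets. Without Pkd1 KO 1, control 2 or control 3, 2 genes of the list were called higher.

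Of the other adhesion receptors of leukocyte traffic, 10 of 12 were tested and 1 rose and 1 fell (median −0.10). Icam2, an endothelial ligand of the same integrins as Icam1, had 13.9 ± 1.07 CPM in Pkd1 KO and 9.67 ± 1.71 CPM in control kidneys (0.53, adjusted p = 0.0326 in edgeR's test). Pecam1, the endothelial junction protein, had 50.7 ± 1.93 and 69.9 ± 4.04 CPM (−0.46, adjusted p = 0.0154). Neither call was firm: that of Icam2 was lost without any of 5 kidneys (all but control 3), and that of Pecam1 without any single Pkd1 KO kidney and with the offsets (−0.09). The list had 0 to 2 genes higher and 0 to 1 lower as single kidneys were left out.

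Among the other Sox genes, 9 of 12 were tested, 0 were higher and 4 lower, with a median of −0.51 that the offsets brought to −0.04, with 2 lower. Sox13 had 14.0 ± 1.33 CPM in Pkd1 KO and 34.04 ± 7.496 CPM in control kidneys (−1.28, adjusted p = 0.00259 in edgeR's test; −0.32 and 0.0459 with the offsets). Sox7, a gene of endothelial development, had 1.38 ± 0.293 and 2.82 ± 0.363 CPM (−1.03, adjusted p = 0.00863; −1.02 with the offsets). Sox12, of the same subgroup as Sox4, had 7.78 ± 1.33 and 15.9 ± 6.81 CPM (−1.03, adjusted p = 0.0184), but −0.07 with the offsets and −0.68 without control 2. Its call was lost without Pkd1 KO 2 or Pkd1 KO 3, and 2 genes of the list were called lower without Pkd1 KO 3.

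All 19 lipid droplet genes other than Plin2 were tested, and 2 rose while 6 fell (median −0.15). That balance depended on the setting: with the offsets 3 were higher and 4 lower (median 0.17), and with no filter on low counts 6 were higher and 5 lower. Enzymes of lipid turnover were the largest decreases: Pnpla2, the first lipase of stored fat, had 41.0 ± 4.69 CPM in Pkd1 KO and 93.5 ± 20.8 CPM in control kidneys (−1.19, adjusted p = 0.0028 in edgeR's test). Lipe, hormone-sensitive lipase, had 5.16 ± 0.554 and 10.5 ± 3.39 CPM (−1.02, adjusted p = 0.00845), and Dgat2, which makes triglyceride, 96.4 ± 5.50 and 167 ± 28.4 CPM (−0.80, adjusted p = 0.00495). Hilpda, which restrains the Pnpla2 lipase, rose to 4.28 ± 0.662 CPM in Pkd1 KO kidneys, against 1.54 ± 0.281 CPM in controls (1.47, adjusted p = 0.00274). Abhd5, which activates the Pnpla2 lipase, had 95.9 ± 7.07 and 63.7 ± 16.4 CPM (0.59, adjusted p = 0.0306), a call lost without control 1 or any single Pkd1 KO kidney. With the offsets Lipe was no longer called (−0.22, adjusted p = 0.331). Higher calls in the list numbered 1 without Pkd1 KO 1, Pkd1 KO 3 or control 1, and 4 without control 3.

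Genes of the differentiated proximal tubule fell more often than they rose, 13 against 3 of 25 tested, with a median of −0.51. The amino acid transporter gene Slc7a8 (−2.48, adjusted p = 0.00492 in edgeR's test), the dicarboxylate transporter gene Slc13a3 (−2.24, adjusted p = 0.00178) and Cubn, the receptor for filtered protein (−1.87, adjusted p = 0.00699), fell most among those named by the rule. Slc7a8 averaged 25.4 ± 5.64 CPM in Pkd1 KO kidneys. The controls spread widely, at 129, 247 and 48.4 CPM. Cubn averaged 84.3 ± 4.83 CPM in Pkd1 KO and 308 ± 207 CPM in control kidneys, and its value was −1.22 without control 2. Kap, the kidney androgen-regulated protein gene (1.14, adjusted p = 0.00903), and the lactate transporter gene Slc5a12 (0.62, adjusted p = 0.0277) rose. With the offsets 12 were lower and 0 higher, with Kap at 0.22 and Slc5a12 at 0.11. The Slc5a12 call was lost without Pkd1 KO 1, Pkd1 KO 2, control 1 or control 3 (adjusted p from 0.0603 to 0.128), and 1 gene was called higher without Pkd1 KO 2 or control 1.

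**Figure D5:**
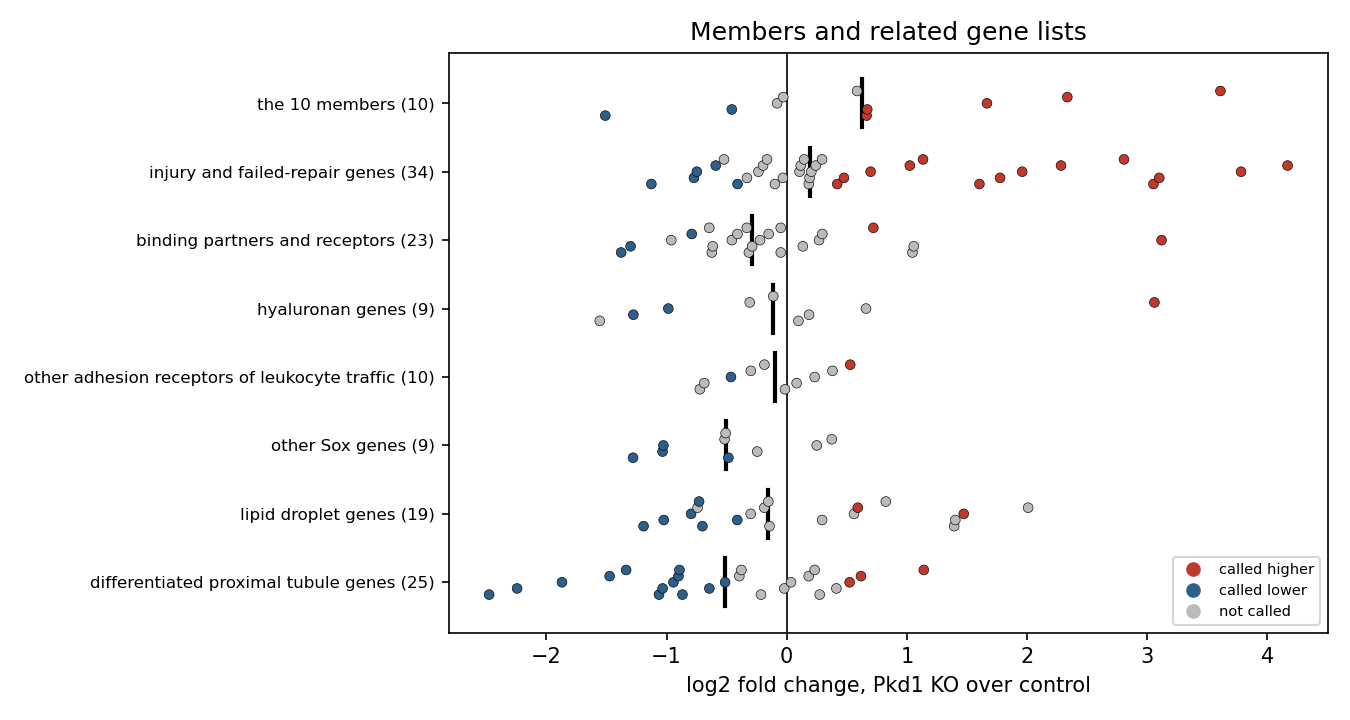
Log2 fold changes (Pkd1 KO over control, x axis) of the 10 genes and of 7 related gene lists, 1 point per tested gene, with the number tested in parentheses. Red points were called higher, blue lower and grey not called, and black bars are medians. The medians of the 10 genes (0.63) and of the injury list (0.20) lie above 0, and those of the other lists below it.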

How the data were processed

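Poly-A RNA of 6 whole, snap-frozen kidneys was sequenced. The tables deposited by the authors, 1 per run, hold raw counts of reads per gene. Tools named in the submitters' processing notes are cutadapt 4.0, FastQC 0.11.8 and STAR 2.6.1e, with build GRCm39. The annotation version was not given in the sources used here. Counts from the column that ignores strand were used, since the strand columns held about equal shares. Lines that name no gene (25.3% to 26.3% of reads in Pkd1 KO, 22.9% to 23.8% in control libraries) stayed out. Both runs of control 1 were summed. The runs differed by a chi-square of 3.59 per gene, and libraries of 1 group by 26.1 to 257.

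GENCODE M21, of the older build GRCm38, gave symbols to 52073 identifiers by gene ID, exon length (union of exons) and GC content. No gene coordinate from it is printed. All 209 list and marker entries matched.

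Pkd1 KO was tested against control with edgeR 4.0.16 in R 4.3.3: filterByExpr, TMM, quasi-likelihood test, Benjamini-Hochberg adjustment over 18273 genes at 0.05. Standard errors were computed as |log2 fold change| over the root of the F statistic. CPM uses TMM library sizes, and group values are means ± SD. The offsets were a robust linear loess surface (span 0.3) per library over GC content and log2 length, for 17785 genes. It would also remove a real change shared by genes of like structure. Alternatives included DESeq2 1.42.0. The labels number the kidneys within each group but do not say that each came from a different mouse. The p-values weigh the group difference against the spread between these samples.

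The members and lists were chosen with earlier results of these data known. Named list genes are up to 3 called genes with the largest change in the direction most calls of a list take, and at most 2 in the opposite one, with mean log2 CPM above 0. A result that this rule took is not reported here. The code was tested on simulated data.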

Additional observations from a re-analysis of the deposited data

How the results depend on the processing

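Havcr1, Lcn2, Clu and Cd44 kept direction and call in all 16 alternatives. Of the 160 values of the 10 genes over the alternatives, 123 kept direction and side of the threshold, 23 lost the call and 14 reversed sign. Icam1 turned to 0.085 with upper-quartile scaling, 0.46 with the offsets, 0.46 with block and offsets, 0.43 with a quadratic, non-robust loess and 0.16 with both strand columns added. Sox4 turned to 0.14 with upper-quartile scaling, 0.24 with the offsets, 0.24 with block and offsets and 0.20 with the quadratic loess, and ran from −0.20 to 0.15 with 1 kidney left out (0.09 without Pkd1 KO 1, 0.15 without control 2). Spp1 turned to −0.11 with the offsets, −0.12 with block and offsets and −0.16 with the quadratic loess. The quadratic loess and the added strand columns were chosen after seeing the data, and for these reversals the cause was not tested.

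Of the 10 genes, 1 was called lower with upper-quartile scaling, the replicate block, the offsets, or both together, and 3 were higher with the block. Of the lipid droplet genes, 5 were higher and 5 lower with the block, and 7 and 3 with block and offsets. Sox13 lost its call with block and offsets (−0.32, adjusted p = 0.0895). With 1 kidney left out, 3 to 5 of the 10 injury and repair genes were higher and 1 to 2 lower. Replicate numbers did not pair the kidneys (correlations of 0.04, −0.08 and −0.03 between same-numbered kidneys). Over all genes, 8579 were called as reported. The replicate block with the offsets called 5401, 2716 higher and 2685 lower, and the quadratic loess called 2666 higher. With 1 kidney left out, 5071 to 10318 genes were called, 2340 to 4877 higher and 2731 to 5441 lower. Upper-quartile scaling moved the median over all genes to 0.19 (log2) and the share of higher calls to 60.5%, against 48.4% as reported. Sox9 rested on 21 to 72 reads per kidney.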
